A study of Mus musculus with 206 samples.

Results

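The comparison described here is that of adult lipopolysaccharide (LPS) with adult saline in the hypothalamus of mice that had been exposed to morphine before and after birth. Libraries of H3K27ac, the acetylated form of lysine 27 on histone H3, were taken where the labels name the hypothalamus and the groups MOR-LPS (perinatal morphine, adult LPS) or MOR-SAL (perinatal morphine, adult saline). This gave 10 MOR-LPS and 12 MOR-SAL libraries, 22 of the 41 hypothalamus libraries with a peak list and of 206 samples in the series. They were scored over 13788 consensus regions that the authors defined for this brain region. All animals were wild-type C57BL/6NTac mice. In both groups the dams had carried minipumps delivering morphine at 10 mg/kg per day, the newborn pups were moved to drug-naive foster mothers, and the pups then received 2 daily injections of 10 mg/kg morphine on postnatal days 1 to 14. MOR-LPS animals received LPS as adults, MOR-SAL animals saline, and tissue was taken 2 h later. The MOR-LPS libraries came from 6 females and 4 males, against 4 females and 8 males in MOR-SAL, with 1 library per animal. The first part of each animal's identifier is a number whose meaning the labels do not give. The groups covered 10 such prefixes, each with animals of 1 sex only, and 5 of them had libraries in both groups. Each library was made from about 10000 sorted nuclei carrying NeuN, a neuronal nuclear protein. The punched tissue holds many neuron types, so a lower signal from fewer neurons of a type and a weaker mark per nucleus cannot be told apart.

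LPS is a cell wall component of bacteria that is sensed by Toll-like receptor 4 and starts an acute inflammatory response. The hypothalamus answers such a challenge with changes in body temperature, reduced feeding and activation of the stress axis, which raises circulating glucocorticoids. H3K27ac is deposited by the acetyltransferases CBP and p300 at promoters and enhancers in use, and it changes within hours at genes that respond to inflammation, to glucocorticoids and to neuronal activity.

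The regions with the largest differences lay mostly in introns, and 8 of them are printed to show what kind of sequence carries the result. Each is the 200 bases of the mm10 plus strand centred on the median peak summit, read from GRCm38.p6 as distributed by RefSeq, and none overlaps an annotated exon. They were chosen, after their values were seen, among the named regions. The first 4 are from regions that rose in MOR-LPS and the last 4 from regions that fell. Capitals mark matches, on either strand, to TTGGCA (a core of nuclear factor I sites), AGAACA (a core of glucocorticoid receptor sites) and TAATTA (a homeodomain core). The AP-1 motif TGANTCA was searched as well and had no match in these 8.
Nfix distal intron, chr8:84793584-84793783: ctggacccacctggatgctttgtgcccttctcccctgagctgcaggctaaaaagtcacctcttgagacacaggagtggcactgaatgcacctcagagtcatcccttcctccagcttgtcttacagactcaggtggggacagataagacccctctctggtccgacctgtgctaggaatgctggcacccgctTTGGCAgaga
Nfix second intronic region, chr8:84763855-84764054: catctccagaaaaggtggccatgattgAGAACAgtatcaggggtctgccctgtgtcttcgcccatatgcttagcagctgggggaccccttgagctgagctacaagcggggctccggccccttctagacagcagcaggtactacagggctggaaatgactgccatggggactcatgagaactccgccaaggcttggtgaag
Zeb2 promoter region, chr2:45115800-45115999: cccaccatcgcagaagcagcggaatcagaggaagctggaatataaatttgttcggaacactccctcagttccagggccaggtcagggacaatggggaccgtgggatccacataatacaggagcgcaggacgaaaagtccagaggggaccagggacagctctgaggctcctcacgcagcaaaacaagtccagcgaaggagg
Zbtb20 intron, chr16:43592209-43592408: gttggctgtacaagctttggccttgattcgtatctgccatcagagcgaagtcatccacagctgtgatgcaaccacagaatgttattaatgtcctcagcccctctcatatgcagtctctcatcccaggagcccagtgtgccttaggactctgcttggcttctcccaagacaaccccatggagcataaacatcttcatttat
Kcnb2 intron, chr1:15683401-15683600: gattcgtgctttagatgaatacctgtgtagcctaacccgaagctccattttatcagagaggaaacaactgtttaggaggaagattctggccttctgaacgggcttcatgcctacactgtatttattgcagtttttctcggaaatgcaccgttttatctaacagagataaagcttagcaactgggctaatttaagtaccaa
Intergenic region of chromosome 17, chr17:15252134-15252333: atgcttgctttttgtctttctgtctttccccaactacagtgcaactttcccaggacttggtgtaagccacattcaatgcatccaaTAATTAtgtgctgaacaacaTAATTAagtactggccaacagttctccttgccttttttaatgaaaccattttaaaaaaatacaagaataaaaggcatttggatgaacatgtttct
Myo3b intron, chr2:70060679-70060878: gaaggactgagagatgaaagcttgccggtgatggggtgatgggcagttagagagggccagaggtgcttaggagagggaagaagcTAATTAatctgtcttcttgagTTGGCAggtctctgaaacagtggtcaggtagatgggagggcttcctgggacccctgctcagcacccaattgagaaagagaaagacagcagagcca
Rgs17 promoter region, chr10:5921300-5921499: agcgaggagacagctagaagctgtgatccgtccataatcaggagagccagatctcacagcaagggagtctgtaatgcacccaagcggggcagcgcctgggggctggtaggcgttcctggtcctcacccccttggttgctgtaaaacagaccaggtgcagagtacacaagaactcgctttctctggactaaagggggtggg
The printed stretches differ in composition. The window of the Zeb2 promoter region held 56.0% G and C, that of the intergenic region of chromosome 17 held 35.5%. The intergenic region carried 2 matches to TAATTA, the Myo3b intron 1 to TAATTA and 1 to TTGGCA, and the Zeb2, Zbtb20, Kcnb2 and Rgs17 windows none of the 4 motifs. Over windows of the same length, TTGGCA was found in 13.4% of the 321 regions called higher, 9.62% of the 208 called lower and 10.8% of the 13787 regions on assembled chromosomes. AGAACA was found in 19.9%, 18.8% and 15.8% of these, TAATTA in 6.85%, 4.81% and 3.71%, and TGANTCA in 5.61%, 5.29% and 6.27%. Of 6 further motifs, GGAATTTCC (kappa-B) was in none of the called windows and in 0.116% of all. TTATGTAA (D-box) was in 0.312%, 3.37% and 1.52%, TGACGTCA (CRE) in 0.312%, 0% and 0.377%, and CACGTG (E-box) in 3.12%, 4.33% and 2.97%. CAGGTG (bound by ZEB proteins) was in 12.5%, 14.9% and 14.4%, and ACAAAG (SOX) in 18.1%, 16.3% and 16.1%. These shares describe letters in a window and were not tested.

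Each region was given the highest −log10 p of the peaks that overlapped it in a library, or 0 without a peak, and was then ranked within that library from 0 to 100. A difference is therefore in percentile points of rank, and a region can only gain rank as others lose it. The MOR-LPS lists held 76526 ± 34531 peaks (SD, n = 10; range 28052 to 135368), and the MOR-SAL lists 52875 ± 22872 (SD, n = 12; range 24505 to 88357). The ratio of geometric means was 1.44, and the groups overlapped (exact two-sided permutation test within sex, p = 0.0987). All regions that lack a peak in a library receive 1 common rank, which falls as a list gets longer. It averaged 9.61 ± 7.34 in MOR-LPS and 12.9 ± 8.27 in MOR-SAL. The main comparison was therefore repeated with all lists reduced to their 20170 strongest peaks, also without single libraries and with a lane term. So were the LPS contrast after perinatal saline and the interaction with perinatal treatment. Fits by sex, the interaction with sex, the replicate block and the marker-share terms used full lists only. Below, "called higher" and "called lower" cover every region past the threshold in the full lists. Of these, "rose" and "fell" are used of single regions called in both versions, and "ranked higher" or "ranked lower" of single regions called in the full lists only.

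The cell types were checked by the share of marker genes with a peak among the 10000 strongest of a library within 1 kb of the start site. Of 19 neuron markers, 26.8 ± 14.4% were marked in MOR-LPS (range 5.26 to 57.9%) and 43.9 ± 15.6% in MOR-SAL (15.8 to 68.4%), a difference of −17.0 points (exact two-sided permutation test within sex, p = 0.0455, adjusted over 10 marker lists 0.41). The promoter of Rbfox3, which encodes NeuN itself, was marked in 1 of 10 MOR-LPS and 6 of 12 MOR-SAL libraries. Of 14 astrocyte markers, 10.0 ± 7.68% and 8.93 ± 6.19% were marked, and of 14 oligodendrocyte markers 7.14 ± 11.2% (range 0 to 35.7%) and 2.98 ± 4.78% (0 to 14.3%), with adjusted p of 0.936 and 0.904 by the same test. All 13 microglia and all 10 endothelial markers were at 0 in every library. Of 19 markers of hypothalamic nuclei, 18, among them Pomc, Oxt, Avp, Crh and Nkx2-1, had no such peak in any of the 41 hypothalamus libraries, while Hcrt was marked in 4 of 10 MOR-LPS and 2 of 12 MOR-SAL libraries. Of 10 thalamus markers, 1.00 ± 3.16% were marked in MOR-LPS and 10.8 ± 13.8% in MOR-SAL, with 5 of the 10 in the MOR-SAL male 13-1. The label of the tissue could thus not be checked against its defining genes at this depth.

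Some libraries stood apart from their group. Over the 321 regions called higher, the mean rank was 53.4 to 74.1 in 8 MOR-LPS libraries, but 31.6 in the male 13-2 and 29.1 in the female 18-1. In MOR-SAL it was 16.1 to 35.6 in 11 libraries and 49.4 in the female 18-0. Over the 208 regions called lower, the means were 58.0 in 13-2 and 56.7 in 18-1, against 18.0 to 37.3 in the other MOR-LPS libraries, and 54.8 in 18-0, against 67.0 to 75.7 in the other MOR-SAL libraries. These means describe regions chosen on the same libraries. The library 18-1 had 57.9% of neuron markers marked, the highest share in MOR-LPS, and 18-0 had 15.8%, the joint lowest in MOR-SAL, while 13-2 had 26.3%. Among mice given saline around birth, the SAL-SAL females 9-4 and 4-1 had means of 65.9 and 61.3 over the regions called higher, with 15.8% and 21.1% of neuron markers marked.

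**Figure D1:**
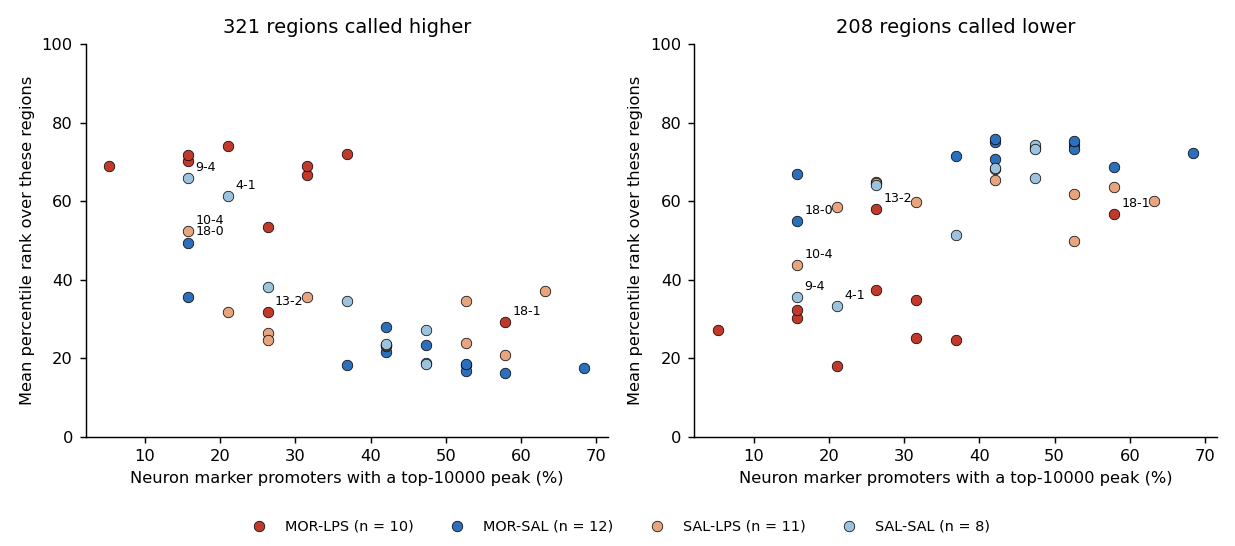
Mean percentile rank of each hypothalamus library over the regions called higher (left) and lower (right) in MOR-LPS, against the percentage of 19 neuron marker promoters with a peak among its 10000 strongest; each point is 1 library, coloured by group. MOR-LPS libraries other than 13-2 and 18-1 sit at 53.4 to 74.1 on the left panel, and of the other groups 9-4, 4-1, 10-4 and 18-0 lie nearest to them, with neuron marker shares of 15.8 to 21.1%, a range that also holds MOR-SAL 15-4 and SAL-LPS 11-0 at means of 35.6 and 31.7.

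A total of 529 regions differed between MOR-LPS and MOR-SAL at an adjusted p under 0.05 in limma, 3.84% of those tested: 321 (2.33%) were called higher and 208 (1.51%) lower in MOR-LPS. In the lists of equal length 241 regions (1.75%) were called. Called in both versions were 146 regions that rose (1.06%) and 71 that fell (0.515%). Regions called higher had a median rank of 59.5 in MOR-LPS and 20.9 in MOR-SAL. Of them 8 had no peak in any MOR-SAL library, as had 14 of all 13788 regions. The authors kept regions with enough reads in most samples of any 1 condition, so a region can have passed through MOR-LPS. Counts of libraries with a peak, here and below, come from the lists that were ranked and are no separate support. Regions called lower were mostly strong in MOR-SAL, with a median rank of 32.6 in MOR-LPS and 72.9 in MOR-SAL. Promoters made up 19.0% of the regions called higher and 19.2% of those called lower, against 31.2% of all regions. Introns held the summit of 73.5% and 48.6% of them, against 61.3% of all, and 44.7% of regions called lower were intergenic, against 30.1% of all. The test of occupancy by the 10000 strongest peaks called 0 of 8386 regions (719 at an unadjusted p under 0.05, smallest adjusted p 0.384, exact conditional test within sex).

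The count depended on single libraries and on which terms were in the model. It was 142 without the MOR-LPS library 14-4, 201 without 14-0, 320 without 6-0 and 345 without 15-1, but 1007 without 13-2 and 997 without 18-1. Without the MOR-SAL library 16-3 it was 322, and without 18-0 it was 944. With the identifier prefix as a replicate block by duplicateCorrelation, in all 41 libraries, it was 562. As a fixed term the prefix was fitted in the 22 MOR-LPS and MOR-SAL libraries only, without a sex term. That fit called 0 regions, against 383 in the same 22 libraries with sex and no prefix. Only the 5 prefixes found in both groups, with 7 libraries of each, inform its contrast. There 189 of the 321 and 118 of the 208 regions kept an unadjusted p under 0.05. With the neuron marker share as a term it was 2, both lower in MOR-LPS (the Kcnb2 intron and the intergenic region of chromosome 17). All 529 regions kept their direction with this term, 289 of the 321 and 205 of the 208 had an unadjusted p under 0.05, and the median difference was 26.9 points over the regions called higher (35.4 without the term) and −30.8 points over those called lower (−36.2 without it). With the thalamus marker share 86 regions were called. The part of these marker shares in the differences was not tested further. The direction split turned to 159 higher and 265 lower on quantile-normalized log2 scores, and to 20 higher and 94 lower among the 6092 regions with a peak in at least 80% of libraries. The peak names carry lane 7, lane 4 or no lane: with this as a term 546 regions were called, and within the 6 MOR-LPS and 6 MOR-SAL libraries of lane 7 none passed (1726 at an unadjusted p under 0.05), although all 529 regions kept their direction there.

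**Figure D2:**
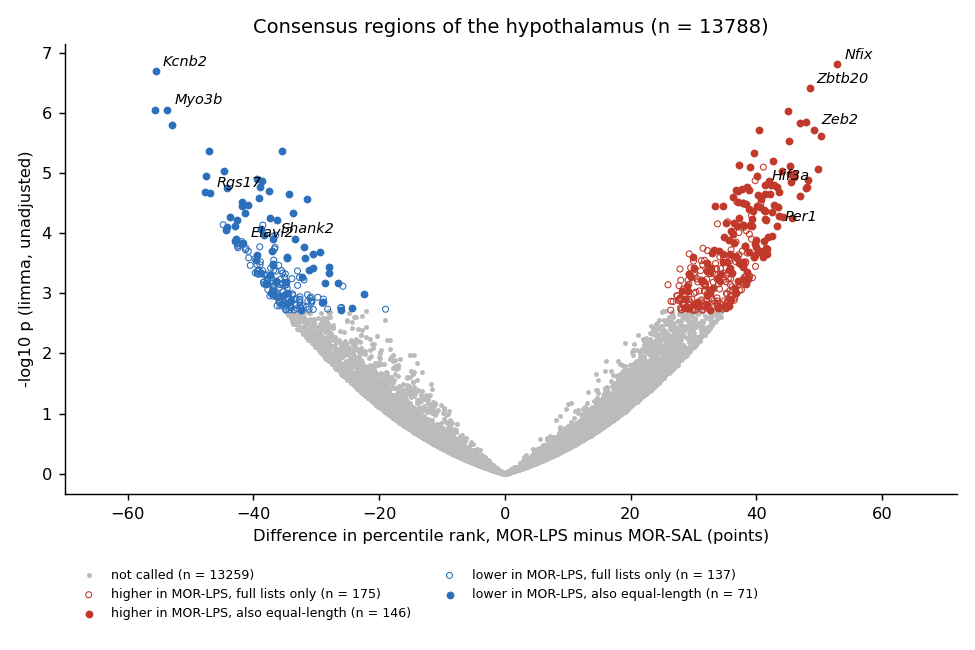
Difference in percentile rank, MOR-LPS minus MOR-SAL, against the unadjusted −log10 p from limma for all 13788 regions; filled points were called in full and equal-length lists, open points in full lists only, and grey points were not called. The largest higher values belong to 2 regions of Nfix, a region near Zfp706, the Zeb2 promoter and the Zbtb20 intron, the largest lower values to Kcnb2, Myo3b and the chromosome 17 region.

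Among the 10 regions that gained most rank, 2 lay in Nfix, 1 in Zeb2 and 1 in Zbtb20, all genes for transcription factors, and the other 6 are given further on. Nfix encodes a nuclear factor I protein, a family that directs neural stem cells toward glial fates. An intronic region of Nfix at chr8:84789994-84795902 ranked between 5.94 and 98.6 in MOR-LPS libraries, with a median of 86.1, and between 5.55 and 58.7 in MOR-SAL libraries, with a median of 12.3. All MOR-LPS libraries but 13-2 and 18-1 lay above the highest MOR-SAL library. A peak was present in 8 of 10 MOR-LPS and 1 of 12 MOR-SAL libraries, and the difference was 52.9 ± 10.0 points (SE, adjusted p = 0.0014). A second intronic region, chr8:84756449-84769772, rose by 50.2 ± 10.6 points (adjusted p = 0.00282). All 7 consensus regions within Nfix were called higher in MOR-LPS, against 2.33% of all regions, and 5 of them in both versions of the lists. Their differences ran from 27.7 to 52.9 points, with a median of 44.0.

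Zeb2, which encodes a zinc finger repressor that binds E-boxes, also gained rank. Its promoter region at chr2:45113351-45116982 ranked at 5.94, 85.6 and 96.9 (lowest, median, highest) in MOR-LPS, and at 5.55, 15.5 and 58.7 in MOR-SAL. In 7 MOR-LPS libraries it lay above every MOR-SAL library, and it rose by 49.2 ± 10.2 points (adjusted p = 0.00244). Of 11 regions within Zeb2, 7 were called higher, against 2.33% of all regions, 5 of them rose, and the median difference was 32.7 points. An intronic region of Zbtb20, a zinc finger factor of hippocampal and astrocyte development, rose by 48.5 ± 9.48 points (chr16:43589452-43594338, adjusted p = 0.0018; nearest start site that of Tigit). It ranked at 10.1, 80.1 and 86.9 in MOR-LPS and at 6.53, 17.3 and 32.4 in MOR-SAL. Here 8 MOR-LPS libraries lay above all 12 MOR-SAL libraries.

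Loci with at least 3 called regions, a rule chosen after the values were seen, were few, and within each of them the called regions went 1 way. Besides Nfix and Zeb2 these were Tcf4 with 8 of 22 regions higher, Nfia with 5 of 6 higher and Zbtb20 with 3 of 13 higher. Of all 13788 regions 2.33% were called higher and 1.51% lower, and 6792 differences were positive and 6996 negative. Regions of 1 locus were scored in the same libraries, so a run in 1 direction is not repeated evidence. Tcf4 encodes a helix-loop-helix factor whose loss causes Pitt-Hopkins syndrome in humans, and Nfia a second nuclear factor I protein. All 22 Tcf4 regions had a positive difference, from 13.7 to 45.6 points. Its strongest intronic region, chr18:69575241-69587298, ranked at 33.3, 92.4 and 99.4 in MOR-LPS and at 9.08, 34.5 and 85.7 in MOR-SAL, and rose by 45.6 ± 11.3 points (adjusted p = 0.00858). Its called promoter region rose by 37.9 ± 10.4 points (adjusted p = 0.0203). In Nfia 2 of the 5 rose, the stronger by 42.7 ± 9.84 points (chr4:97867640-97875089, adjusted p = 0.00558). The opposite direction was seen at Zfhx3, which encodes a zinc finger homeodomain factor of the suprachiasmatic clock: all 16 regions had a negative difference and 6 were called lower, 2 of which fell, by 42.6 ± 10.6 points at chr8:108534664-108538509 (adjusted p = 0.00893) and by 32.4 ± 10.4 points at chr8:108893999-108898959 (adjusted p = 0.0496). Sergef with 4 of 10 regions lower and Dscam, which encodes a neuronal cell adhesion molecule, with 3 of 27 lower made up the rest.

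**Figure D3:**
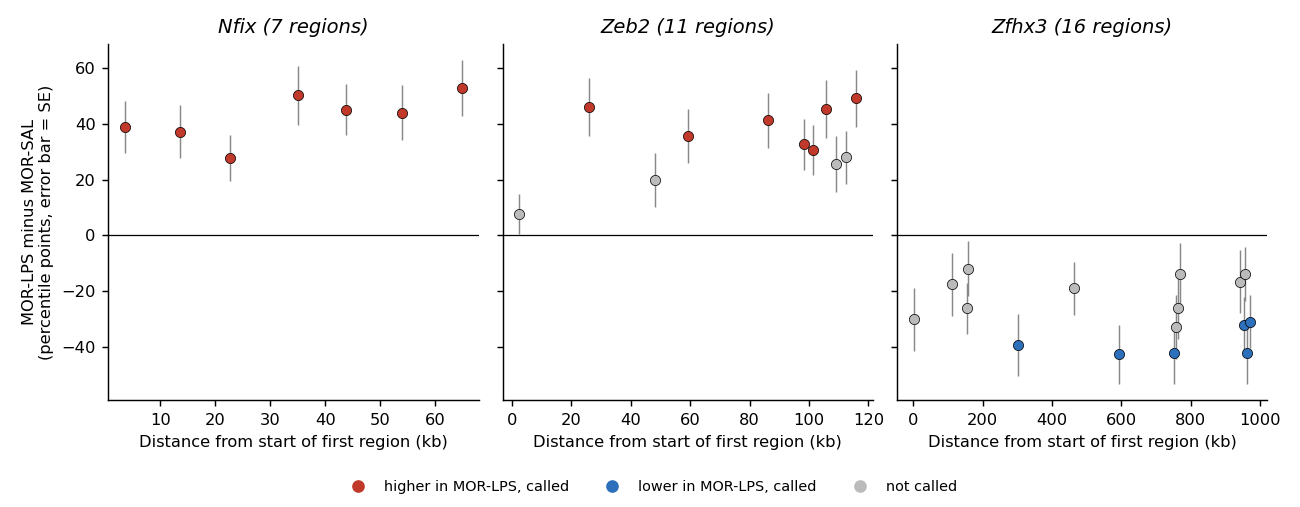
Difference in percentile rank (MOR-LPS minus MOR-SAL, with its standard error) of every consensus region within Nfix, Zeb2 and Zfhx3, against the distance from the start of the first region; red regions were called higher, blue called lower and grey not called. All points lie above 0 at Nfix and Zeb2 and below 0 at Zfhx3.

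The other regions among the 10 largest gains were scattered over the genome. The promoter of Pnpt1, the polynucleotide phosphorylase of mitochondria, ranked at 54.0, 85.1 and 97.4 in MOR-LPS and at 6.53, 25.4 and 77.4 in MOR-SAL, and rose by 48.3 ± 11.0 points (chr11:29129946-29131793, adjusted p = 0.00555). All 10 MOR-LPS libraries held a peak there, 13-2 and 18-1 included, against 5 of 12 MOR-SAL libraries. A region 22569 bp from the start of Fth1, which encodes the heavy chain of the iron store ferritin, rose by 48.0 ± 11.1 points (chr19:9953598-9958029, adjusted p = 0.00558), with medians of 90.0 in MOR-LPS and 18.4 in MOR-SAL. A region 30741 bp from Zfp706 rose by 49.8 ± 11.1 points (adjusted p = 0.00543) and one 47988 bp from Tmem17, a gene of the ciliary transition zone, by 47.9 ± 11.1 points (adjusted p = 0.00558). An intron of Tspan15, a tetraspanin partner of the protease ADAM10, rose by 47.0 ± 9.69 points (chr10:62189896-62195948, adjusted p = 0.00244), and a region of chromosome 18 with no coding gene within 100 kb by 47.9 ± 9.85 points (adjusted p = 0.00244).

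Regions that lost most rank were strong in nearly every MOR-SAL library. An intronic region of Kcnb2, the delayed rectifier potassium channel Kv2.2, ranked at 5.99, 21.0 and 87.4 in MOR-LPS and at 66.1, 84.1 and 99.3 in MOR-SAL (chr1:15682452-15684751). In 9 of 10 MOR-LPS libraries it lay below every MOR-SAL library, the exception being 13-2, and it fell by 55.5 ± 10.6 points (adjusted p = 0.0014). An intergenic region of chromosome 17, 122160 bp from the nearest coding start site, fell by 55.6 ± 11.2 points (chr17:15250511-15253816, adjusted p = 0.00216), with medians of 22.02 in MOR-LPS and 87.2 in MOR-SAL. The promoter of Rgs17, a regulator of G protein signalling that acts on the Gi and Gz proteins of opioid receptors, ranked at 5.52, 33.5 and 52.2 in MOR-LPS and at 53.0, 87.8 and 98.4 in MOR-SAL. It fell by 46.9 ± 11.0 points (chr10:5920129-5923020, adjusted p = 0.00563). An intron of Mtmr7, a phosphoinositide phosphatase, ranked at 5.52, 20.9 and 37.2 in MOR-LPS and at 38.2, 76.6 and 98.8 in MOR-SAL. It fell by 47.6 ± 11.1 points (chr8:40625095-40628124, adjusted p = 0.00563). At Rgs17 and Mtmr7, both chosen among the largest losses, only a narrow gap parted the groups. The share of all regions with such a gap is not given here.

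Introns of Myo3b, an unconventional myosin, and of Adgrd1, an adhesion G protein-coupled receptor, fell by 53.7 ± 10.8 points (adjusted p = 0.00216) and 53.0 ± 11.0 points (adjusted p = 0.00244). At Adgrd1 a peak was present in 2 of 10 MOR-LPS and 10 of 12 MOR-SAL libraries. Regions nearest to Bbs10, to Adam7 and to Hsd17b12 fell by 47.6, 47.0 and 44.7 points, with adjusted p of 0.00555, 0.00393 and 0.00543. An intron of Rab3c, a GTPase of synaptic vesicles, ranked lower by 44.8 ± 11.2 points (adjusted p = 0.00984), with an adjusted p of 0.0606 in lists of equal length. The MOR-LPS female 18-1 stood at 70.1 at Rab3c, against 28.6 for the next MOR-LPS library.

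**Figure D4:**
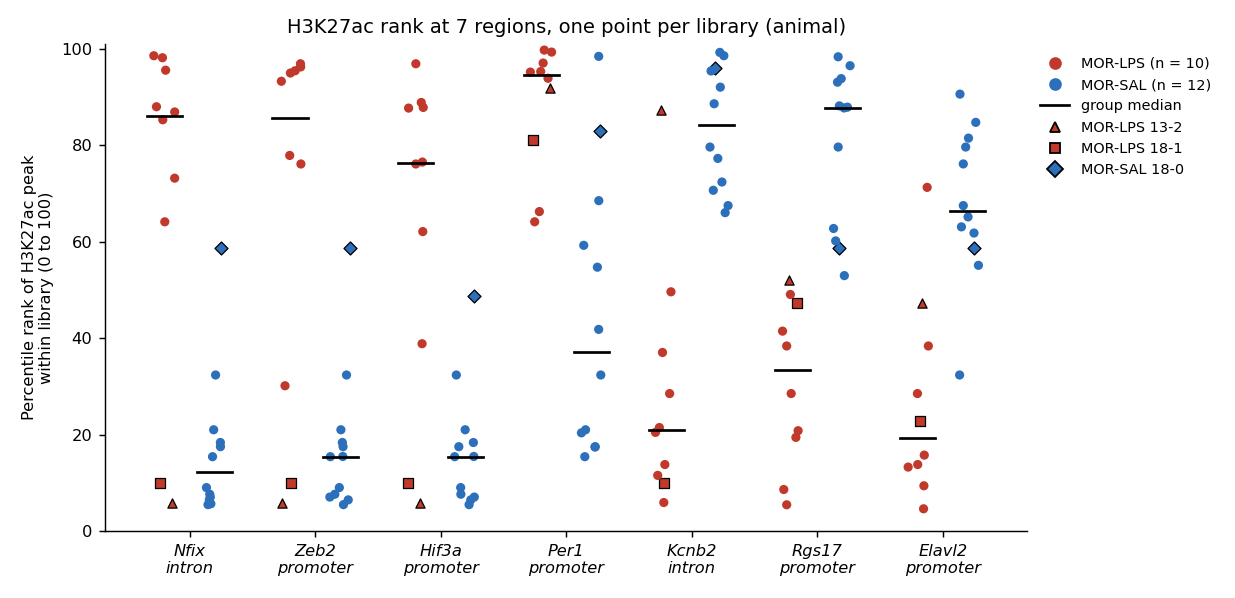
Percentile rank of the H3K27ac peak within its library at 4 regions that rose (Nfix, Zeb2, Hif3a, Per1) and 3 that fell (Kcnb2, Rgs17, Elavl2); red points are the 10 MOR-LPS and blue points the 12 MOR-SAL libraries, bars are group medians, and outlined symbols mark MOR-LPS 13-2 and 18-1 and MOR-SAL 18-0. MOR-LPS 13-2 and 18-1 lie among the MOR-SAL libraries at Nfix, Zeb2 and Hif3a but at 91.9 and 81.2 at Per1.

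Genes that respond to glucocorticoids and stress were read from a list of 30 genes, 21 of which had 49 regions. Of these regions 5 were called higher (10.2%) and none lower, against 2.33% higher and 1.51% lower over all regions, and the median difference was 5.75 points, against −0.29 over all regions. The Per1 promoter, a clock gene that glucocorticoids induce rapidly, ranked at 64.2, 94.5 and 99.7 in MOR-LPS and at 15.5, 37.1 and 98.4 in MOR-SAL. All 10 MOR-LPS libraries held a peak there, 13-2 and 18-1 included, although MOR-SAL 16-3 was as high as any of them but 2. Per1 rose by 43.4 ± 10.9 points (chr11:69092582-69094990, adjusted p = 0.0099). The promoter of Hif3a, a hypoxia-inducible factor, ranked at 5.94, 76.3 and 96.9 in MOR-LPS and at 5.55, 15.5 and 48.7 in MOR-SAL, and rose by 41.3 ± 9.52 points (chr7:17058470-17063577, adjusted p = 0.00558). Here 7 MOR-LPS libraries lay above every MOR-SAL library.

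A region 3355 bp from Ddit4, an inhibitor of mTOR signalling, rose by 41.8 ± 10.8 points (adjusted p = 0.0132), and one 15035 bp from Errfi1, an inhibitor of the EGF receptor, by 42.8 ± 10.3 points (adjusted p = 0.0066). A region 49919 bp from Pdk4, a kinase that restrains pyruvate use, had a peak in 7 of 10 MOR-LPS and in 0 of 12 MOR-SAL libraries and ranked higher by 30.0 ± 8.25 points (adjusted p = 0.0203). Other glucocorticoid targets did not pass. At the Fkbp5 promoter, a co-chaperone of the glucocorticoid receptor, the difference was 18.5 ± 8.30 points (adjusted p = 0.179), and at the Sgk1 promoter, a kinase of salt and stress signalling, it was −21.1 ± 7.77 points (adjusted p = 0.0923), with medians of 70.0 in MOR-LPS and 88.3 in MOR-SAL.

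Metabolic and clock genes were read in the same way. Of 61 regions at 26 of the 36 listed genes of glucose and lipid metabolism, 4 were called higher (6.56%) and none lower. Over all regions 2.33% were called higher and 1.51% lower. The 4 lay at Pdk4, at Akt2 (the insulin-signalling kinase, by 33.9 ± 10.5 points) and at 2 regions near Ppara (the fatty acid sensor, by 38.3 ± 11.0 and 35.3 points). The median over the list was 10.0 points, and 44 of 61 differences were positive, but none of the 4 passed in lists of equal length. Of 29 regions at clock genes 2 rose (6.90% called higher, against 2.33% of all regions), at Per1 and at a region 19507 bp from Tef, a PAR bZIP factor of the clock output, by 37.7 ± 8.75 points (adjusted p = 0.00558). The median over the clock list was −0.717 points.

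Among NF-kB and acute-phase genes, 5 of 21 regions were called higher (23.8%) and none lower, against 2.33% higher and 1.51% lower over all regions. The 5 lay at 4 of the 13 genes that had a region. A region inside Spidr, 66988 bp from the start of Cebpd, which encodes an acute-phase transcription factor, ranked at 10.1, 55.2 and 88.9 in MOR-LPS and at 5.55, 8.48 and 32.4 in MOR-SAL. None of the 12 MOR-SAL libraries held a peak there, against 9 of 10 MOR-LPS libraries, and it rose by 37.3 ± 8.27 points (chr16:15954274-15959233, adjusted p = 0.00531). The Cebpd promoter ranked higher by 27.6 ± 8.55 points (adjusted p = 0.0429, and 0.0854 in lists of equal length). A region 1093 bp from Zfp36, which encodes the mRNA-destabilizing protein tristetraprolin, rose by 36.6 ± 10.9 points (chr7:28381346-28384632, adjusted p = 0.0326), with medians of 76.5 in MOR-LPS and 29.5 in MOR-SAL. The promoter of Serpina3n, an acute-phase serpin, ranked at 70.9, 90.9 and 99.6 in MOR-LPS and at 18.4, 59.8 and 95.0 in MOR-SAL, and it ranked higher by 35.4 ± 11.0 points (adjusted p = 0.0434, and 0.0916 in lists of equal length).

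Several classical early targets of LPS did not pass. Nfkbia encodes the NF-kB inhibitor: a region 25304 bp from it ranked higher by 35.9 ± 10.4 points (adjusted p = 0.0277), while its promoter had medians of 50.1 in MOR-LPS and 43.5 in MOR-SAL (difference −0.14 ± 11.1, adjusted p = 0.996). The Nfkbiz promoter had medians of 85.3 and 43.8 (29.2 ± 11.2 points, adjusted p = 0.107). The cytokine signalling inhibitor Socs3 had a difference of 4.36 ± 10.1 points (adjusted p = 0.851), the region nearest to Il1b −4.69 ± 11.0 points (adjusted p = 0.853) and a region near Irf1, an interferon regulatory factor, 24.9 ± 11.1 points (adjusted p = 0.176). None of 9 interferon regions was called, against 3.84% of all regions, Irf2 with 21.5 ± 8.66 points (adjusted p = 0.129) being next after Irf1. At that share, so few regions cannot show an absence of change. Of 3 regions at 2 of 12 listed cytokine genes none was called, again too few to show an absence. The Il12a promoter differed by 22.4 ± 10.8 points and a region 25183 bp from it by 28.4 ± 10.1 points (adjusted p = 0.222 and 0.0797). Cebpb had no consensus region.

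Immediate early genes, which neuronal activity switches on within minutes, had calls near the share over all regions. Of 41 regions at 25 genes none was called higher and 1 lower (2.44%), against 2.33% higher and 1.51% lower over all regions. It was the promoter of Scg2, which encodes the granule protein secretogranin II. It ranked at 3.32, 43.6 and 81.2 in MOR-LPS and at 62.4, 78.8 and 98.6 in MOR-SAL, a difference of −36.6 ± 9.75 points (adjusted p = 0.0164, and 0.063 in lists of equal length). The region nearest to Fos differed by −29.2 ± 10.1 points (adjusted p = 0.07), the Nr4a1 promoter by −26.4 ± 10.6 (adjusted p = 0.128), the regions nearest to Egr1 and Npas4 by −20.5 ± 10.6 and −19.2 ± 10.5 (adjusted p = 0.249 and 0.287), and the Junb promoter by 12.4 ± 10.8 (adjusted p = 0.541). The list's median was −0.07 points.

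Regions at neuron markers had mostly negative differences. Of 70 regions at 15 of the 19 genes 7 were called lower (10.0%) and none higher, against 2.33% higher and 1.51% lower over all regions. There 60 of 70 differences were negative, and the median was −13.7 points. The Elavl2 promoter, an RNA-binding protein of neurons, ranked at 4.69, 19.4 and 71.3 in MOR-LPS and at 32.4, 66.3 and 90.6 in MOR-SAL, and fell by 41.6 ± 10.9 points (chr4:91372052-91378207, adjusted p = 0.0146). In 7 of 10 MOR-LPS libraries it lay below every MOR-SAL library. An intron of its relative Elavl4 fell by 42.7 ± 11.1 points (adjusted p = 0.0136). The promoter of Slc17a6, the vesicular glutamate transporter VGLUT2 of most hypothalamic and thalamic excitatory neurons, ranked at 5.52, 26.7 and 94.1 in MOR-LPS and at 45.0, 87.0 and 96.1 in MOR-SAL. It ranked lower by 38.5 ± 9.66 points (adjusted p = 0.00984, and 0.0871 in lists of equal length), as did regions nearest to Nefm, Snap25 and Syt1, which encode a neurofilament and proteins of vesicle release, by 40.5, 36.0 and 33.9 points. The neuron marker share given above is taken from peaks at the same genes in the same libraries, so it is not separate evidence.

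Glial genes had few regions, and those called were higher in MOR-LPS: 1 of 5 regions at astrocyte markers, 2 of 17 (11.8%) at oligodendrocyte markers and 1 of 3 (33.3%) at precursor markers, against 2.33% of all regions. The promoter of Slc1a3, the astrocyte glutamate transporter GLAST, ranked higher by 29.6 ± 8.28 points (adjusted p = 0.0235). Those at oligodendrocyte markers lay in introns of the myelin genes Mbp (38.6 ± 10.4 points, adjusted p = 0.0175) and Mog (30.8 ± 9.64 points, adjusted p = 0.0444). The promoter of Sox8, a SOX factor of the oligodendrocyte lineage, ranked higher by 27.5 ± 8.39 points (adjusted p = 0.0396), while another Sox8 region differed by 25.9 ± 10.2 points (adjusted p = 0.119). With lists reduced to equal length, all 4 lost the call. Differences were positive in 4 and negative in 1 of the astrocyte regions, and positive in 12 and negative in 5 of the oligodendrocyte regions. Marked promoters of astrocyte genes went both ways. Aldoc was marked in 1 of 10 MOR-LPS and 7 of 12 MOR-SAL libraries and Slc1a2 in 2 and 5, but Glul in 5 and 2 and S100b in 3 and 0. At the Glul promoter, glutamine synthetase of astrocytes, the difference was 19.4 ± 11.2 points (adjusted p = 0.318). Of 4 regions at endothelial markers none was called (Cdh5 26.3 ± 11.1 and Pecam1 −21.6 ± 9.35 points, adjusted p = 0.147 and 0.161), nor was the only region at a microglia marker, near Ly86 (7.85 ± 9.69 points, adjusted p = 0.686). So few regions cannot show an absence of change.

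Markers of brain areas had mostly negative differences. Of 11 regions at thalamus markers 10 differences were negative and 1 region was called lower (9.09%, against 1.51% of all regions), in an intron of Ntng1, which encodes netrin-G1 of thalamic axons, by 30.8 ± 9.58 points (adjusted p = 0.0432), while a Ntng1 promoter region differed by −30.1 ± 11.0 points (adjusted p = 0.0886) and the Tcf7l2 promoter by −23.6 ± 10.3 (adjusted p = 0.166). Of 9 regions at striatum markers 6 differences were negative and 3 positive, and none was called, against 3.84% of all regions. Pde10a and Rarb, with the most negative of these values, differed by −33.4 ± 11.2 and −21.8 ± 10.5 points (adjusted p = 0.0612 and 0.218). Of 12 regions at hypothalamic neuropeptide and receptor genes none was called, against 3.84% of all regions, and sets this small cannot show an absence of change. The regions near Pomc, the precursor of melanocortins and beta-endorphin, differed by −30.9 ± 11.2 and −20.0 ± 11.3 points (adjusted p = 0.0843 and 0.303), and the promoter of the neuropeptide Y receptor gene Npy5r by −21.4 ± 11.0 points (adjusted p = 0.25).

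**Figure D5:**
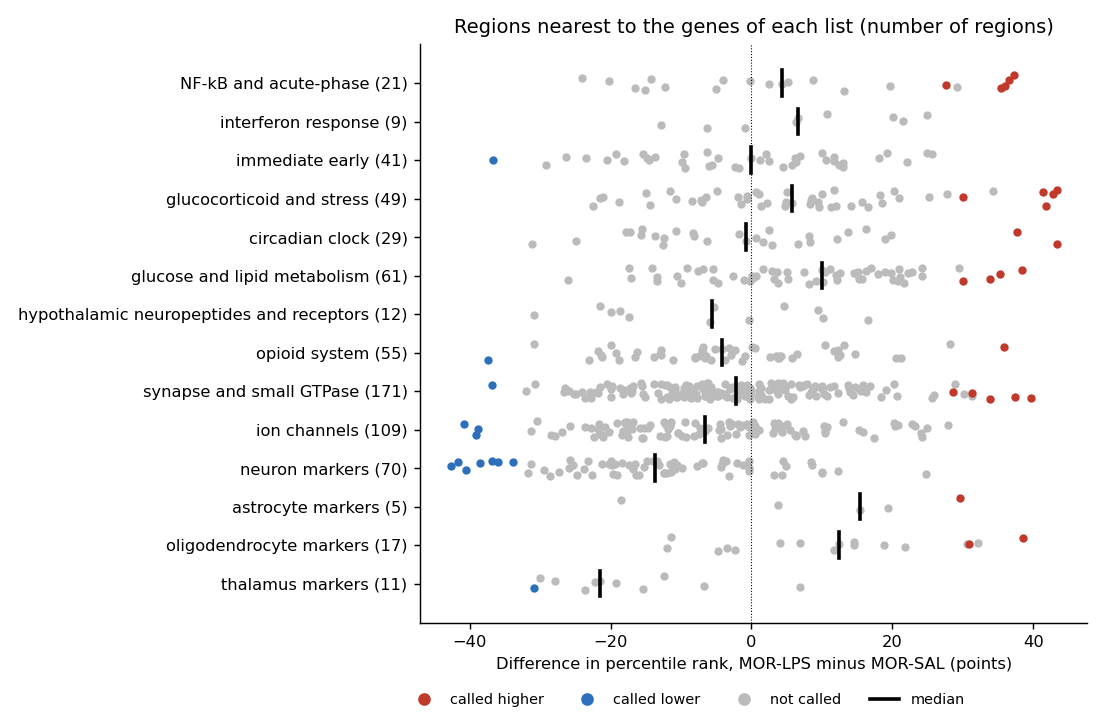
Difference in percentile rank, MOR-LPS minus MOR-SAL, of every region whose nearest coding start site belongs to a gene of the list; red regions were called higher, blue called lower, grey not called, and the bar is the list's median. Called regions lie only above 0 for the NF-kB, glucocorticoid, clock, metabolic and glial lists. They lie only below 0 for the ion channel, neuron marker, immediate early and thalamus lists, the last 2 with 1 region each. Opioid and synapse lists have called regions on both sides, and interferon and neuropeptide lists have none.

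Of 109 regions at 24 ion channel genes 3 fell (2.75%) and none was called higher, near the 1.51% lower and 2.33% higher over all regions. The promoter of Kcnn2, the small-conductance potassium channel SK2, ranked at 3.32, 29.1 and 84.6 in MOR-LPS and at 48.7, 88.8 and 99.9 in MOR-SAL, and fell by 40.8 ± 9.80 points (chr18:45266911-45270625, adjusted p = 0.0066). The promoter of Scn1a, the sodium channel Nav1.1 of fast-spiking neurons, ranked at 13.9, 33.3 and 98.6 in MOR-LPS and at 59.2, 89.2 and 99.6 in MOR-SAL, and fell by 38.7 ± 9.80 points (chr2:66438876-66443203, adjusted p = 0.0104). In both promoters most MOR-LPS libraries lay below the MOR-SAL median. A region in Sergef assigned to Kcnc1, the potassium channel Kv3.1, fell by 39.1 ± 9.26 points (adjusted p = 0.00615).

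The opioid list had 55 regions at 22 genes, and 1 was called in each direction (1.82%), near the 2.33% higher and 1.51% lower over all regions. A region 48575 bp from Kcnj5, the inward rectifier GIRK4 that Gi-coupled receptors open, ranked at 10.8, 33.01 and 99.4 in MOR-LPS and at 36.5, 87.9 and 99.996 in MOR-SAL, and fell by 37.4 ± 9.21 points (adjusted p = 0.00858). An intron of Adcy5, an adenylyl cyclase that opioid receptors inhibit, ranked higher by 35.8 ± 10.7 points (adjusted p = 0.0352, and 0.111 in lists of equal length). The gene of the mu receptor, Oprm1, had no consensus region. Of 171 regions at synapse and small GTPase genes 5 were called higher and 1 lower, or 2.92% and 0.585%, against 2.33% and 1.51% of all regions. An intron of Prex1, an activator of Rac, rose by 39.7 ± 10.8 points (adjusted p = 0.0189), and an intron of Shank2, a scaffold of the postsynaptic density, fell by 36.8 ± 9.54 points (chr7:144130469-144134108, adjusted p = 0.0136). The strongest gain by p on this list was in Sipa1l1, a Rap GTPase-activating protein of spines, which ranked higher by 33.8 ± 8.47 points (adjusted p = 0.00978). A further list holds genes that the study itself names under LPS, which were chosen on these samples and so give no independent evidence. Of its 65 regions at 13 genes, 11 were called higher (16.9%), 8 of them in Tcf4, and none lower. The shares over all regions were 2.33% and 1.51%. The promoter of Sbf1, a myotubularin-related protein, rose by 43.6 ± 10.2 points (adjusted p = 0.00562).

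Females and males were also fitted apart. Among 6 MOR-LPS and 4 MOR-SAL females 0 regions passed in limma (1244 at an unadjusted p under 0.05), and among 4 MOR-LPS and 8 MOR-SAL males 552 did (4.0%), 271 of them among the 529. The numbers of animals differ, and this does not show that the sexes respond differently. The test of the difference itself, the interaction of LPS with sex, called 3 regions (0.0218%; 1050 at an unadjusted p under 0.05). At the Nfix intron given first the difference was 39.3 points in females and 63.2 in males, at the Zeb2 promoter 33.4 and 61.2, at Per1 31.1 and 50.2, at Hif3a 41.8 and 40.9, at the Kcnb2 intron −63.2 and −46.4 and at Rgs17 −47.0 and −45.6.

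The same LPS contrast in mice given saline around birth, 11 SAL-LPS against 8 SAL-SAL libraries, shares no library with this one. It called 42 regions (0.305%), none of which was among the 529, a set that holds 3.84% of all regions. Across the 13788 regions the differences of both contrasts had a Pearson r of −0.122 and a Spearman rho of −0.127, with all libraries in 1 fit; regions are not independent replicates. The interaction of LPS with perinatal treatment called 257 regions (1.86%) in full lists and 7 in lists of equal length, and 119 and 6 of these were among the 529. The 529 regions and many named ones were chosen by their difference after morphine, which is part of this term, so these overlaps are no separate support. Of the 76 named regions, 3 differed between the perinatal treatments in both versions. The Shank2 intron differed by −36.8 points after morphine and 35.5 after saline (adjusted p of the interaction 0.00204, and 0.00714 in lists of equal length), the Kcnb2 intron by −55.5 and 26.3 (0.00187 and 0.0259), and the region near Kcnj5 by −37.4 and 25.6 (0.0108 and 0.0259). Outside the named regions, a Nfix promoter region (chr8:84769961-84773755) differed by 45.0 points after morphine and −8.90 after saline. Its interaction had an adjusted p of 0.0214, and 0.0456 in lists of equal length. At Per1 the difference after saline was 27.8 points (adjusted p = 0.289), in the same direction as after morphine. At the Nfix intron given first and the Zeb2 promoter it was −5.20 and −14.5 points (adjusted p = 0.893 and 0.63).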

How the data were processed

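H3K27ac was profiled by MOWChIP-seq in NeuN-positive nuclei. Per the labels and the methods of the study, the authors used Trim Galore 0.6.7 for trimming, Bowtie2 2.4.5 for alignment (build mm10), MACS2 2.2.7.1 for peaks of each single library and DiffBind 3.10.1 for the consensus regions. The deposited peak lists give −log10 p and −log10 q, a fold enrichment (a ratio to the local background) and a whole-number score, which is 10 times −log10 q. Read counts and read depth are not given in the lists, so the number of peaks was the only measure of depth, and peak calls do not show how well a weak signal was covered.

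The highest −log10 p of peaks overlapping a region by at least 1 bp was ranked within each library, and limma 3.58.1 (R 4.3.3, trended variance) was fitted to all 41 hypothalamus libraries with group and sex. The contrast MOR-LPS minus MOR-SAL was two-sided with Benjamini-Hochberg adjustment over 13788 regions and a threshold of 0.05. Genes were assigned by the nearest coding start site within 100 kb, which does not show that they are targets; promoters lie within 1 kb of a start site. Regions were named by a fixed rule: the 10 largest gains and losses past the threshold, the leading regions of each gene list and a set of genes always named. Other called members of the lists are named as their counts require, and were chosen after their values were seen. The members and lists were chosen with earlier results of these data known. Animals are separate, 1 library each. The block was the prefix of the identifiers, which the labels do not explain: over 9 pairs of a MOR-LPS and a MOR-SAL library with the same prefix, the deviations from the group means correlated at −0.116 on average (−0.349 to 0.0613, 0 pairs over 0.1), and over 47 other pairs of the same sex at −0.0241. Alternatives changed list length, score, overlap, filter, terms and libraries. Input libraries and other brain regions were not used here.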

Additional observations from a re-analysis of the deposited data

Results flagged for a closer look

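In 77 groups of ranks at the named regions, 4 had a library far from the rest (gap over range above 0.466), where chance gives about 1 in 20. At the Serpina3n promoter MOR-LPS 16-0 stood at 70.9, the next library at 85.3. In the Rab3c intron MOR-LPS 18-1 stood at 70.1, the next at 28.6. MOR-LPS 13-2 stood at 76.5 in the Myo3b intron, the next at 28.6, and at 73.3 in the intergenic region of chromosome 17, the next at 32.1.

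At 21 of the 76 named regions the LPS difference after morphine and that after saline differed by the interaction term of limma (adjusted p under 0.05 in full lists). Over all regions this share was 1.86%. Many regions were named for a large difference after morphine, which is part of this term. A high count was therefore favoured in advance and is no separate support. The difference of the differences was positive at the Nfix introns (58.1 and 56.4 points), the Zeb2 promoter (63.7), the Zbtb20 intron (65.7), near Fth1 (56.2) and Tmem17 (67.5), at the chromosome 18 region (59.8), Tspan15 (50.01) and Hif3a (50.4), in Spidr near Cebpd (49.5), near Zfp36 (53.8) and Pdk4 (41.2) and at Sox8 (46.3). It was negative at Shank2 (−72.3), Kcnj5 (−62.9), Hsd17b12 (−60.9), Rgs17 (−55.2), Adam7 (−65.1), Adgrd1 (−57.2), Myo3b (−64.4) and the Kcnb2 intron (−81.8). In lists of equal length only Shank2, Kcnj5 and the Kcnb2 intron stayed below 0.05 among these 21, and the others had adjusted p of 0.0543 to 0.133. The SAL-SAL libraries 9-4 and 4-1, which lay near MOR-LPS, enter this term.

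The LPS difference depended on sex at 3 regions (female minus male difference, adjusted p from limma): near Calm2, which encodes calmodulin, by −104.9 points (−48.9 in females and 56.0 in males, p = 0.0169), near the stress kinase gene Eif2ak3 by 91.7 (38.9 and −52.8, p = 0.00349), and in an intron of Pknox2 nearest to Fez1 by −100.3 (−45.5 and 54.9, p = 0.0039).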

How the results depend on the processing

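The calls depended on list length, model terms and single libraries, and the causes were not tested. Beside the 529 calls (321 higher, 208 lower), lists of equal length gave 241 (164 and 77) and 240 (163 and 77) with the lane as a term. The replicate block gave 562 by duplicateCorrelation. As a fixed term in the 22 MOR-LPS and MOR-SAL libraries it gave 0 (0 and 0), against 383 (229 and 154) in these libraries without it. Without the sex term there were 907 (545 and 362), in females 0 (0 and 0), with array weights 1659 (947 and 712), in regions with a peak in 80% of libraries 114 (20 and 94), with the neuron share 2 (0 and 2), with the thalamus share 86 (54 and 32) and in lane 7 only 0 (0 and 0). Log2 scores gave 159 higher and the oligodendrocyte share 137 lower. Leaving out 1 library gave 142 to 1007 calls, 101 to 585 higher, 41 to 432 lower and 27 to 437 called in both list lengths (217 with all libraries). The interaction with perinatal treatment gave 257 calls, and 7 in lists of equal length. Of single regions, 30 values changed sign in 7 uncalled regions. Junb was −7.51 and Egr1 6.09 in females, and Ly86 −7.05 in males. Socs3 was −1.36 in lists of equal length, −12.3 with the fixed block, −2.25 in females, −3.59 with the neuron share and −1.13 in lists of equal length with lane. The Nfkbia promoter was 1.90 without sex, 2.43 in males, 0.564 by fold enrichment, 0.143 on log2 scores, 4.00 with array weights and −4.96 to 4.6 without 1 library. Il1b was 1.18, 8.66, 9.02 and 0.701 in lists of equal length, with the fixed block, with the neuron share and in lists of equal length with lane, and Tcf7l2 was 2.19 in females and 2.25 in lane 7. The lane settings were chosen after seeing the data. Peak lists limit all values, since a region without a peak has no measured signal.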
